A study of Homo sapiens and Mus musculus with 29 samples.

Results

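HNF4G, HNF4A, ONECUT1 and ONECUT2, 4 genes of the families long called hepatocyte nuclear factors, were followed by gene symbol through every HPAF-II library, and their mouse orthologs through every KPC library. The human table pairs its Ensembl identifiers with 58719 genes and the mouse table with 54446, and each of the 4 symbols matched 1 identifier in each table. Other hepatocyte nuclear factor genes were not followed as members, and ONECUT3 and the FOXA genes were read only beside them. Every value is an RPKM, the reads of a gene per kilobase of its exons, scaled to the library's total of counted reads, so levels of different genes can be set side by side.

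HNF4A and HNF4G encode paralogous nuclear receptors that bind DNA as dimers at a shared direct-repeat site and recruit coactivators such as NCOA1 to NCOA3, or corepressors such as NCOR1. HNF4A is known as a master regulator of hepatocyte and gut epithelial identity, and HNF4G is best known from the intestinal epithelium. Both lie in a network with FOXA and GATA factors that governs endoderm-derived tissues, and in pancreatic ductal adenocarcinoma (PDAC) HNF4A belongs to the classical rather than the basal-like subtype. ONECUT1, formerly HNF6, ONECUT2 and ONECUT3 each carry a cut domain and a homeodomain, and ONECUT1 is required for normal development of the pancreatic ducts and endocrine cells.

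The HPAF-II line, a human PDAC line of the classical type, was implanted in the pancreas of young adult NSG mice, which lack functional lymphocytes but keep their own stroma and vessels. The 4 groups of primary tumors were controls with a Cas-9 empty vector (3 tumors), HNF4G-KO with an empty vector (4 tumors), FOXA1-OE, that is, overexpression of the pioneer factor FOXA1 (3 tumors), and HNF4G-KO with FOXA1-OE (5 tumors from 4 mice). Metastases came only from HNF4G-KO mice (2 libraries) and HNF4G-KO with FOXA1-OE mice (4 libraries from 3 mice). The HNF4G-KO cells were pooled CRISPR clones and FOXA1 was delivered by lentivirus. KPC lines, from a genetically engineered mouse model of PDAC driven by a pancreas-expressed Cre, were a line from a primary tumor (4 libraries) and one from a liver metastasis (4 libraries), both with a wild-type label and with no statement that the libraries came from separate cultures. P-values within the KPC lines therefore measure only the spread between these libraries.

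Library depth, in units of 1e6 counted reads, was 33.1 to 69.6 in HPAF-II and 30.1 to 44.4 in KPC. All 7 epithelial markers reached 1 RPKM in the HPAF-II tumors. The summed RPKM of acinar cell markers, which can include reads of the host pancreas, ran from 8.68 to 1042 in control tumors, 3.01 to 72.0 in FOXA1-OE tumors, 0.614 to 20.6 in HNF4G-KO tumors and 0.747 to 53.7 in tumors with both changes, and it was at most 0.982 in metastases. FOXA1 mRNA went against the labels in some libraries. FOXA1-OE tumor 3 had 0.763 RPKM of FOXA1, within the control range of 0.519 to 0.932, whereas FOXA1-OE tumors 1 and 2 had 6.32 and 8.18. Among metastases labeled HNF4G-KO with FOXA1-OE, metastasis 2 had 17.9 RPKM and the others had 0.535, 1.30 and 1.55. The targeted gene HNF4G had more mRNA in the HNF4G-KO tumors without FOXA1-OE than in controls, though it missed the limma threshold, as given below. Tumors with both changes overlapped the controls. The reads were not examined at the guide sites, and a frameshift need not lower the mRNA, so this level neither checks nor contradicts the edit itself.

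HNF4A has 2 RefSeq promoters, and the 250 bases before each start (GRCh38.p14, chr20, plus strand) are shown because HNF4A was the member whose change passed the test. The downstream start, known as P1, is the one used in adult liver, and the upstream start, known as P2, lies 45.5 kb away and is used in pancreas. Capitals mark the 1 match in each window to ATCAAT, a core of the ONECUT site, searched on both strands.
HNF4A upstream start, chr20:44355449-44355698: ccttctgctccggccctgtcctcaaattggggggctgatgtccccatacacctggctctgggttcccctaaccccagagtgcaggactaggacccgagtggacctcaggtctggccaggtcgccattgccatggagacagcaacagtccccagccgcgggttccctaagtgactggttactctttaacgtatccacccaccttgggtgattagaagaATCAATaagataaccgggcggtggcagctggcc
HNF4A downstream start, chr20:44400989-44401238: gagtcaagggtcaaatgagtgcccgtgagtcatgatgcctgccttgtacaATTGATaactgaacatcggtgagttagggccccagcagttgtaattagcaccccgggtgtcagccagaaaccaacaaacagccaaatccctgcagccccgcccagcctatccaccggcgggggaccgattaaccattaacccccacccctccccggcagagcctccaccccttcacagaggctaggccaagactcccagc
The upstream match lies 28 to 33 bases before the start on the plus strand, and the downstream match 195 to 200 bases before it on the minus strand. ATCAAT occurred in 5.58% of 35116 such windows. An HNF4 site searched as CAAAGTCCA (0.325% of windows), the second ONECUT core ATCGAT (0.655%) and the FOXA core TGTTTNC (15.5%) had no match in either. The ONECUT1 and ONECUT2 windows held none of the 4 motifs. A gene-level count joins transcripts from both starts, so the libraries do not show which start was used.

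HNF4A (ENSG00000101076.16, GRCh38 chromosome 20, 44355699 to 44432845, plus strand) was higher in every tumor labeled HNF4G-KO than in any tumor without that label. The controls had 11.3, 9.96 and 8.49 RPKM and the HNF4G-KO tumors had 21.5, 14.6, 16.8 and 21.9. Means were 9.92 ± 1.41 (SD, n = 3) and 18.7 ± 3.59 (n = 4), a ratio of 1.88. In limma on log2(RPKM + 1) across 14269 genes, HNF4A rose by 0.84 (SE 0.19, adjusted p = 0.0172), and it was the only one of the members called in this comparison, in which 12.2% of all genes tested were called (882 higher and 854 lower). The exact two-sided permutation test gave p = 0.0571, the smallest these group sizes allow. In 46.4% of tested genes the groups did not overlap, 25.1% with the HNF4G-KO tumors higher. HNF4A lost its call (adjusted p 0.0534 to 0.0775) without control tumor 2, control tumor 3 or HNF4G-KO tumor 4, each left out in turn.

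The same order held with FOXA1-OE. FOXA1-OE tumors had 9.13, 12.8 and 7.24 RPKM of HNF4A, and tumors with both changes had 20.0, 19.9, 15.8, 16.4 and 18.5. These groups did not overlap either, as was true of 14.6% of tested genes. HNF4A rose by 0.87 (SE 0.19, limma adjusted p = 0.0151) from FOXA1-OE to both changes, where 7.86% of genes were called, and by 0.82 (SE 0.19, limma adjusted p = 0.0290) from control to both changes, where 4.7% were called. The first call was lost without FOXA1-OE tumor 1 (adjusted p = 0.0590), and the second without any 1 of the controls or without tumor 1 or 5 of the group with both changes (adjusted p 0.0517 to 0.137). Both were also lost in limma fits of only the groups compared (adjusted p = 0.137 and adjusted p = 0.0727). Without FOXA1-OE tumor 3 the first difference was 0.69 (limma adjusted p = 0.0488).

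FOXA1-OE itself went with no called change in HNF4A. From control to FOXA1-OE the log2 difference was -0.05 (SE 0.21, limma adjusted p = 0.955), and it was 0.12 without FOXA1-OE tumor 3. From HNF4G-KO to both changes it was -0.02 (SE 0.18, limma adjusted p = 0.945), and the difference between these effects was 0.03 (SE 0.27, limma adjusted p = 0.994). Few genes were called at all in these comparisons, 0%, 0.0561% and 0.035%, respectively. From control to FOXA1-OE limma called 0 genes, with 652 at an unadjusted p under 0.05. The lowest HNF4A level in any HNF4G-KO library, metastases included, was 14.6 RPKM and the highest in any other library was 12.8.

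**Figure D1:**
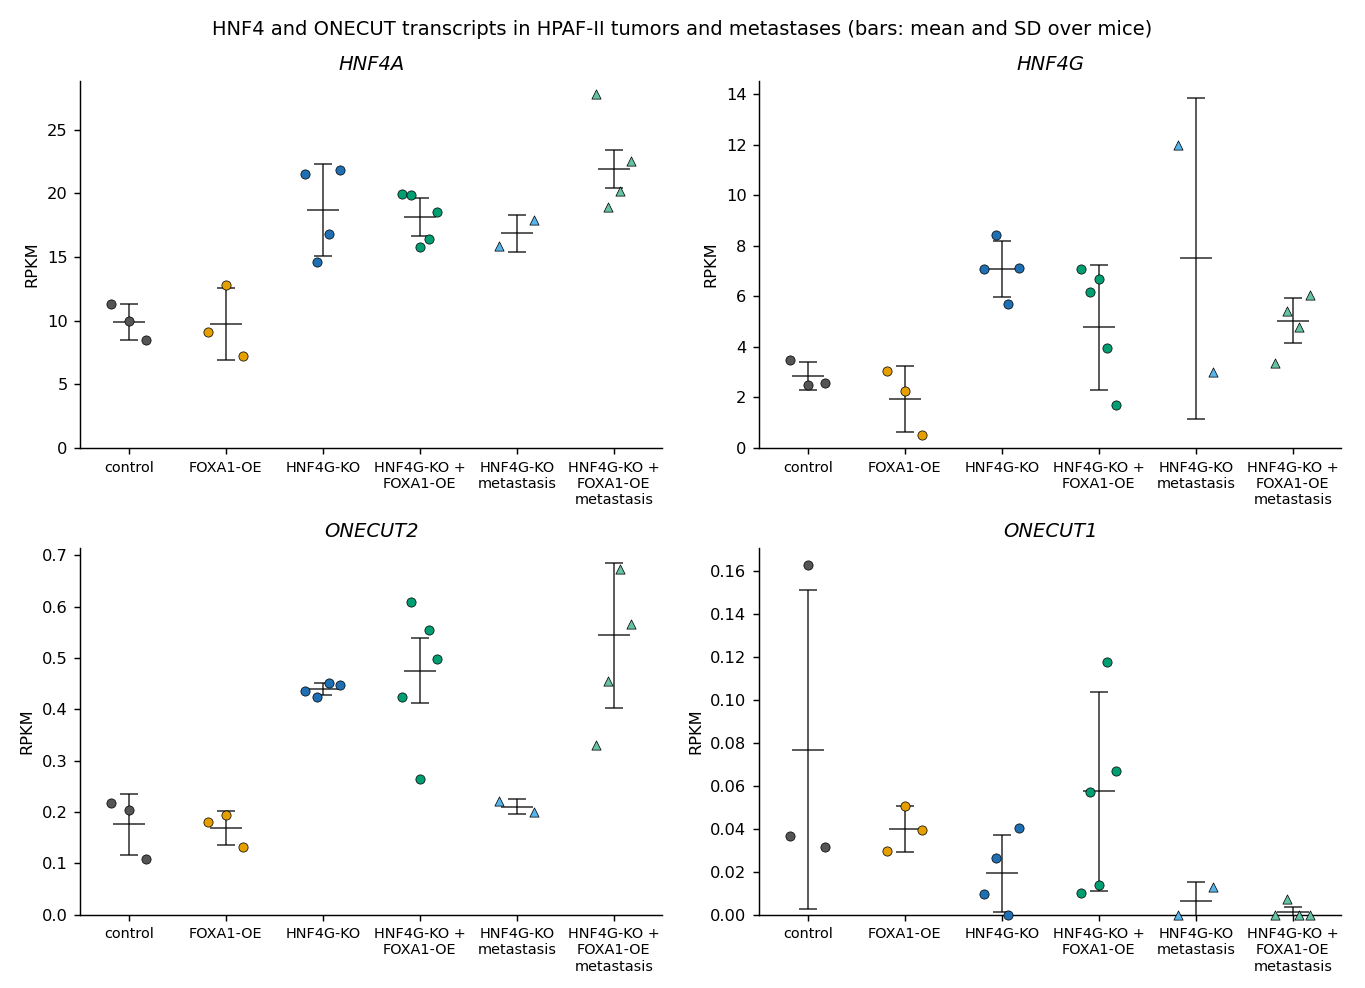
RPKM (vertical axis, linear from 0) of the 4 members in each of the 6 groups of HPAF-II samples. Circles are tumor libraries, triangles metastasis libraries, and black bars the mean and SD over mice. HNF4A lies at 14.6 RPKM or above in every HNF4G-KO library and at 12.8 or below elsewhere, ONECUT2 stays below 1 RPKM throughout, and ONECUT1 is at most 0.163.

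The antisense transcript HNF4A-AS1 starts between the HNF4A promoters and runs against the HNF4A strand. Its group means were 0.414 RPKM in controls, 0.498 in HNF4G-KO, 0.539 in FOXA1-OE and 0.978 in tumors with both changes, from 5 to 76 reads in a library. The kit marked strand, but whether counting used it is not given in the sources used here, so reads of the overlapping pair may be shared between them. HNF4A had 2092 to 12392 reads in a library. With the smooth trend of each library on exon length and GC content removed, HNF4A rose by 0.73 in HNF4G-KO over control (limma adjusted p = 0.00501).

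HNF4G (ENSG00000164749.11, GRCh38 chromosome 8, 75407914 to 75566834, plus strand) is the gene targeted by the knockout guides. Controls had 3.47, 2.48 and 2.57 RPKM and the HNF4G-KO tumors without FOXA1-OE had 7.10, 8.42, 5.72 and 7.11, so these groups did not overlap. The means of 2.84 ± 0.547 (SD, n = 3) and 7.09 ± 1.10 (n = 4) stood at a ratio of 2.50, larger than that of HNF4A. The log2 difference was 1.07 (SE 0.37), with limma adjusted p = 0.0698 when the spread was shared by all 4 groups, and it missed the threshold. In limma on these 2 groups alone the adjusted p was 0.00142, and with the tumor number as a block it was 0.0178 at a log2 difference of 1.12. The exact permutation p was 0.0571, again the smallest possible. The transcript was therefore not lower in these HNF4G-KO tumors.

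HNF4G varied more in the other groups. FOXA1-OE tumors had 3.04, 2.26 and 0.495 RPKM, the lowest in tumor 3, which had 94 reads and also lacked raised FOXA1. Tumors with both changes had 7.09, 6.16, 6.67, 3.94 and 1.69, and the lowest, tumor 5, lay below all 3 controls. The mean was 4.78 ± 2.47 (SD, n = 4 mice). Against FOXA1-OE the log2 difference was 0.98 (SE 0.37, limma adjusted p = 0.122), against control 0.48 (SE 0.37, adjusted p = 0.522) and against HNF4G-KO -0.60 (SE 0.34, adjusted p = 0.306). None of these passed the test, and the groups overlapped each time. FOXA1-OE against control gave -0.50 (SE 0.39, limma adjusted p = 0.840), and -0.07 without FOXA1-OE tumor 3. No 50-base stretch was shared between the exons of HNF4G and HNF4A, so reads of that length separate the paralogs. With its mouse ortholog, HNF4G shared 8 of 4817 stretches (0.166%) and HNF4A 0 of 10487. The pseudogene HNF4GP1 had at most 1 read in a library.

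Exon length moved with these groups. An index of long-gene coverage, the median log2 deviation of 2687 genes with over 8000 exon bases minus that of 1633 genes under 2500, ran from 0.18 to 0.41 in HNF4G-KO tumors and from -0.44 to 0.02 in controls, with no overlap. It ran from -0.64 to -0.10 in FOXA1-OE tumors and from -0.45 to 0.40 in tumors with both changes. With the length and GC trend removed, a setting chosen after the data were seen, HNF4G differed by 0.82 between HNF4G-KO and control (limma adjusted p = 0.0350), by 1.00 between both changes and FOXA1-OE (adjusted p = 0.0153) and by 0.60 between both changes and control (adjusted p = 0.137).

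**Figure D2:**
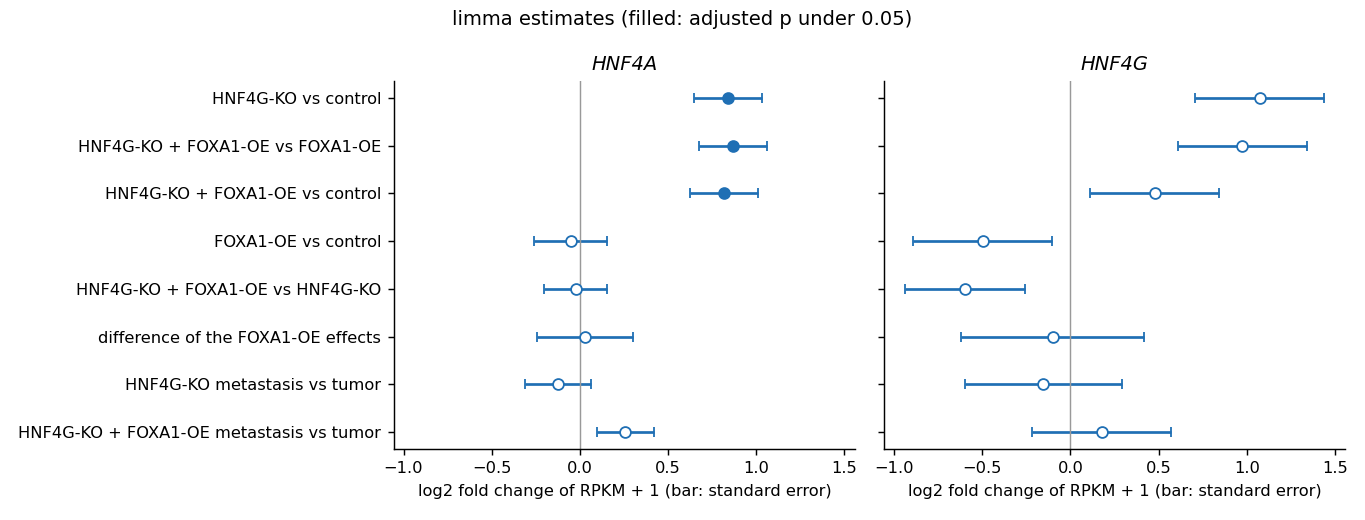
Log2 fold changes of RPKM + 1 (horizontal axis) for HNF4A and HNF4G in each HPAF-II comparison, from limma, with bars of 1 standard error and filled points where the adjusted p was under 0.05. HNF4A lies at 0.84, 0.87 and 0.82, filled, where tumors with HNF4G-KO are compared with tumors without it, and HNF4G at 1.07, 0.98 and 0.48, unfilled, with wider bars.

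HNF4A exceeded HNF4G in every HPAF-II library. Over libraries the mean HNF4A level of 16.5 RPKM ranked 2975 among genes and the mean HNF4G level of 4.90 ranked 7745, and 14229 genes had a mean of at least 1. The HNF4A level was 3.53 ± 0.42 times that of HNF4G in controls (SD, n = 3), 2.69 ± 0.643 in HNF4G-KO tumors (n = 4), 7.76 ± 6.09 in FOXA1-OE tumors (n = 3) and 5.18 ± 3.91 in tumors with both changes (n = 4). The wide spreads came from FOXA1-OE tumor 3, at 14.6, and tumor 5 with both changes, at 11. HNF4G made up 22.2% ± 1.96 of the summed paralog level in controls and 27.9% ± 5.85 in HNF4G-KO tumors. The sum was 12.8 ± 1.88 RPKM in controls, 11.7 ± 3.68 in FOXA1-OE tumors, 25.8 ± 3.50 in HNF4G-KO tumors and 22.9 ± 3.30 in tumors with both changes. HNF4A thus carried the larger part of the added paralog mRNA.

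**Figure D3:**
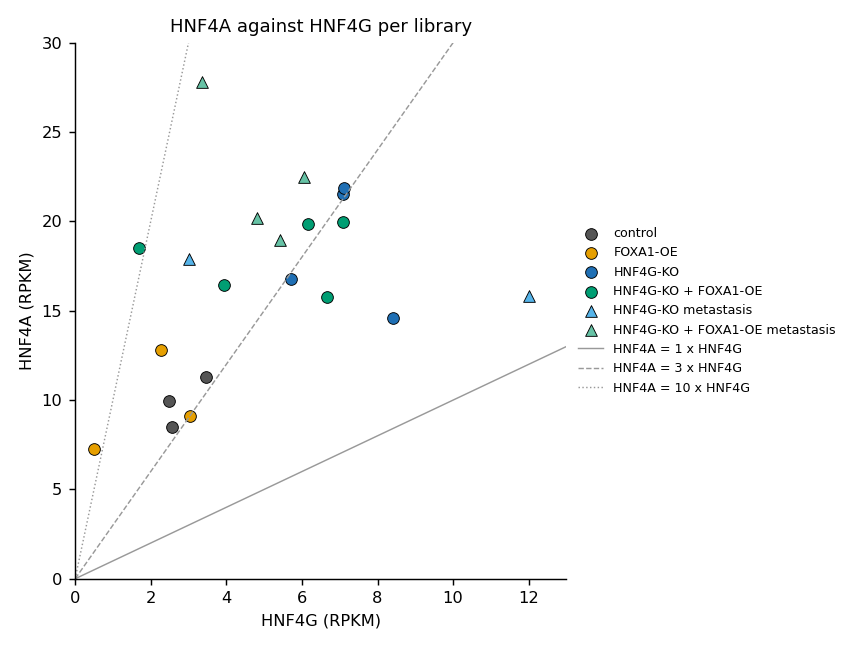
HNF4A against HNF4G in RPKM, both axes linear from 0, with 1 point per HPAF-II library colored by group, triangles for metastases, and gray lines where HNF4A equals 1, 3 or 10 times HNF4G. Libraries labeled HNF4G-KO lie at 14.6 RPKM of HNF4A or above and the others at 12.8 or below, while FOXA1-OE tumor 3 (14.6 times) and tumor 5 with both changes (11 times) lie above the steepest line.

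Over the 14 mice with primary tumors, HNF4A and HNF4G levels had a Pearson r of 0.723 on the log2(RPKM + 1) scale, and of 0.340 once group means were removed. This is a description over mice that share groups and cell pools. The genes whose pattern was most like that of HNF4A were DNAJC22 (r 0.987), PLXNA2 (0.983), CAPN5 (0.980), CREB3L1 (0.979) and PLEKHA6 (0.977). For HNF4G they were OSBPL1A (0.989), RAB22A (0.988), MAPKAPK5 (0.984), SAMD8 (0.983) and ABI1 (0.980). None of the genes named for one paralog was among those named for the other.

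ONECUT2 (GRCh38 chromosome 18, 57435374 to 57491298, plus strand) was low but ordered like HNF4A. Controls had 0.217, 0.203 and 0.107 RPKM, FOXA1-OE tumors 0.181, 0.194 and 0.131, HNF4G-KO tumors 0.436, 0.424, 0.451 and 0.447, and tumors with both changes 0.424, 0.608, 0.264, 0.554 and 0.497. The tumors with and without HNF4G-KO did not overlap, with a lowest value of 0.264 in the former and a highest of 0.217 in the latter. Lack of overlap held for 46.4% of tested genes in HNF4G-KO against control and for 14.6% in both changes against FOXA1-OE. The ratio of means was 2.50 for HNF4G-KO over control and 2.82 for both changes over FOXA1-OE, and each had an exact permutation p of 0.0571, the smallest possible. These values rest on 84 to 628 reads in a library. ONECUT2 lay under the mean of 1 RPKM required for the fit across genes, and so was not in the fit with the length and GC trend removed. Its exons are long, with 16497 stretches of 50 bases. The long-gene index also separated HNF4G-KO tumors (0.18 to 0.41) from controls (-0.44 to 0.02). The part of this in the ONECUT2 differences was not tested. Without that filter the limma log2 difference was 0.29 (adjusted p = 0.0492) for HNF4G-KO over control, 0.34 (adjusted p = 0.0282) for both changes over FOXA1-OE, and 0.33 (adjusted p = 0.0497) for both changes over control. With a pseudocount of 0.1 as well, limma gave 0.99 (adjusted p = 0.0727), 1.09 (adjusted p = 0.0533) and 1.07 (adjusted p = 0.0856). Across the 14 mice ONECUT2 had a Pearson r of 0.900 with HNF4A and 0.630 with HNF4G.

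ONECUT1 (GRCh38 chromosome 15, 52755053 to 52791078, minus strand) was close to its detection limit. It had 0 to 22 reads in a library, and 10 of 21 libraries had 3 or fewer. In 5 libraries it had 0 reads, which allows up to 0.0117 to 0.0235 RPKM at their depths by the limit of 3 reads, for counting error only. The highest value, 0.163 RPKM, came from control tumor 2. Group means were 0.0770 RPKM in controls, 0.0399 in FOXA1-OE, 0.0192 in HNF4G-KO and 0.0574 in tumors with both changes, and the groups overlapped. A difference in ONECUT1 was not detectable at this depth.

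ONECUT3, the remaining paralog, which was no member, was the abundant ONECUT gene of HPAF-II, from 17.5 to 54.8 RPKM in every library. Controls averaged 22.7 ± 1.15 (SD, n = 3) and HNF4G-KO tumors 25.6 ± 2.67 (n = 4), and limma called no change in it in any HPAF-II comparison. The order of levels was thus ONECUT3 over HNF4A over HNF4G over ONECUT2 over ONECUT1 by mean RPKM. No 50-base stretch was shared among the exons of the 3 ONECUT genes. With its mouse ortholog, ONECUT1 shared 97 of 6102 stretches (1.59%), ONECUT2 257 of 16497 (1.56%) and ONECUT3 20 of 7136 (0.280%). Reads of host cells could therefore count toward these genes, and their part was not tested.

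Genes known to depend on HNF4 were read as a list of 30, of which 13 reached the level tested. In HNF4G-KO against control, 2 rose and 1 fell, with a median log2 difference of 0.50 over the 13 and 0.01 over all genes tested. NR1I2, the pregnane X receptor of drug metabolism, rose by 1.66 (limma adjusted p = 0.00861), and LGALS4, a galectin of gut epithelium, rose by 0.94 (adjusted p = 0.0197). The gene that fell, which is not named here, had the largest change of the list's called genes in this comparison, and it fell by 2.70 (adjusted p = 0.000224). Over all genes tested, 12.2% were called in this comparison. With both changes against FOXA1-OE, 5 rose and 1 fell, with a median of 0.70 against -0.03 over all genes, of which 7.86% were called. The unnamed gene fell by 2.36 there and by 2.41 with both changes against control. With both changes against FOXA1-OE, FABP1, the liver and gut fatty acid carrier, rose by 2.93 (limma adjusted p = 0.0115). Its level with both changes, 14.9 ± 16.7 RPKM (SD, n = 4), varied widely between tumors. NR1I2 rose by 1.82 (adjusted p = 0.00453) and LGALS4 by 1.25 (adjusted p = 0.00516). Without FOXA1-OE tumor 3, 4 of the list were called in this comparison and 5 in HNF4G-KO against control, with the share of all genes called in that fit not given here. With both changes against control, 3 rose and 1 fell, FABP1 by 2.69, NR1I2 by 1.59 and LGALS4 by 1.23 among those that rose. Of all genes, 4.7% were called there. No gene of this list, or of the lists below, was called in FOXA1-OE against control, in both changes against HNF4G-KO, in metastases or between KPC lines.

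The coregulators that HNF4 receptors recruit were read as a list of 20, with 16 tested. In HNF4G-KO against control 5 rose and 1 fell, with a median of 0.39, beside 12.2% called over all genes. NCOA2, a p160 coactivator, rose by 1.11 (limma adjusted p = 0.0211), and its relative NCOA3 rose by 0.90 (adjusted p = 0.00695). The corepressor NCOR1 rose by 0.77 (adjusted p = 0.0156), so the set that rose held both kinds of cofactor. With both changes against FOXA1-OE, NCOA3 rose by 0.67 (adjusted p = 0.0261) and the orphan receptor NR2F1, which can compete for HNF4 sites, fell by 1.20 (adjusted p = 0.0354). In a separate fit without FOXA1-OE tumor 3, both genes of this list that were called were lower. They are not named here and need not be the genes just named. The share of all genes called in that fit is not given here. NR2F1 was also the single call with both changes against control, where it fell by 1.36 (limma adjusted p = 0.0274). Over all genes, 7.86% were called with both changes against FOXA1-OE and 4.7% with both changes against control.

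Among 18 endoderm transcription factors, 9 were tested. KLF5, a zinc-finger factor of gut and pancreatic epithelium, rose by 1.27 (limma adjusted p = 0.0025) and GATA6, a classical PDAC factor, by 0.45 (adjusted p = 0.0482) in HNF4G-KO against control. There 12.2% of all genes were called. With both changes against FOXA1-OE no member of this list was called. FOXA1, the overexpressed gene, was the single call with both changes against control, at 2.43 (limma adjusted p = 0.00948). Over all genes tested, 4.7% were called in that comparison. Of 5 cut homeobox genes, 4 were tested and 0 called by limma in any of these comparisons, except that 1 was lower with both changes against FOXA1-OE without FOXA1-OE tumor 3. The share of all genes called in that fit is not given here, so this count does not single out the list.

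Of 8 classical PDAC markers, 6 rose in HNF4G-KO against control, with a median of 1.15, beside 12.2% called over all genes. TFF1, a secreted mucosal peptide, rose by 2.76 (limma adjusted p = 0.0247), CEACAM6, a surface adhesion protein, by 2.00 (adjusted p = 0.00241), CTSE, a gastric protease, by 1.50 (adjusted p = 0.0340) and ANXA10, a gastric annexin, by 1.13 (adjusted p = 0.0312). With both changes against FOXA1-OE 3 rose, CEACAM6 by 1.93, CTSE by 1.47 and ANXA10 by 1.15, and against control CEACAM6 alone rose, by 1.54. Over all genes, 7.86% and 4.7% were called in these comparisons, respectively. None of the 7 epithelial markers was called. Acinar, islet, hepatocyte, stromal, adipocyte and blood and endothelial lists had 10, 1, 1, 5, 1 and 3 members tested, and limma called none in these comparisons. Stromal markers, which can include reads of host cells, summed to 59.2 to 198 RPKM in controls and 51.5 to 73.5 in HNF4G-KO tumors. With their mean as a covariate, HNF4G differed by 1.36 between HNF4G-KO and control (limma adjusted p = 0.0289). In bulk tumors, fewer cells of a type and less RNA per cell cannot be told apart.

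Neighboring genes on the chromosome were compared as a description. Within 10 Mb of HNF4G, 56 genes were tested in HNF4G-KO against control, 12 were called and 11 of these were higher, with a median of 0.37. Within 10 Mb of ONECUT2, 10 of 50 genes were called, all higher, with a median of 0.28. Around HNF4A, 21 of 176 were called, 14 of them higher, and the median of -0.00 lay near that of all genes. Around ONECUT1, 8 of 94 were called and 3 of these were higher. These counts stand beside 12.2% called over all genes, and the shares around HNF4A and ONECUT1 lay below it.

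In metastases neither HNF4 gene passed the test against the tumors that carried the same changes. HNF4A had 15.8 and 17.9 RPKM in the 2 HNF4G-KO metastases, and 27.8, 19.0, 20.2 and 22.5 in the 4 with both changes. The value of 27.8 came from the spleen metastasis. In limma across 14099 genes HNF4A differed by -0.12 (SE 0.19, adjusted p = 0.797) from HNF4G-KO tumors and by 0.26 (SE 0.16, adjusted p = 0.572) from tumors with both changes, where 0.0426% and 0.00709% of genes were called. The means with both changes, 21.9 ± 1.47 RPKM in metastases (SD, n = 3 mice) and 18.2 ± 1.49 in tumors (n = 4 mice), did not overlap by mouse, and the exact permutation p was 0.0571, the smallest possible. Some mice gave both a tumor and a metastasis, and neither limma nor this permutation test took that into account here. Such a lack of overlap held for 6.53% of genes. With metastasis 2, the 1 with raised FOXA1, as the only metastasis of this group, the log2 difference was 0.06, a value from 1 library with no test. HNF4G had 12 and 3.01 RPKM in the HNF4G-KO metastases and 3.35 to 6.05 in those with both changes, and limma gave -0.15 (adjusted p = 0.903) and 0.18 (adjusted p = 0.869). The first value turned to 0.70 without the mouse of HNF4G-KO tumor 4 and metastasis 2, which held the lower metastasis. By group mean, HNF4A ran from 21.9 RPKM in metastases with both changes through 18.7 in HNF4G-KO tumors, 18.2 in tumors with both changes and 16.9 in HNF4G-KO metastases to 9.92 in controls and 9.72 in FOXA1-OE tumors. Neighbors in this order overlapped, except HNF4G-KO metastases and controls. HNF4G ran from 7.50 in HNF4G-KO metastases through 7.09 in HNF4G-KO tumors, 5.05 in metastases and 4.78 in tumors with both changes to 2.84 in controls and 1.93 in FOXA1-OE tumors, and all neighbors in this order overlapped.

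Both a tumor and a metastasis came from 4 mice. In the HNF4G-KO pairs HNF4A went from 14.6 in tumor 2 to 15.8 in metastasis 1 and from 21.9 in tumor 4 to 17.9 in metastasis 2. HNF4G went from 8.42 to 12 and from 7.11 to 3.01 RPKM in the same pairs, so both paralogs were higher in the metastasis of one mouse and lower in that of the other. In the pairs with both changes HNF4A went from 20.0 to 23.0 and from 16.4 to 22.5, whereas HNF4G went from 7.09 to 4.29 and from 3.94 to 6.05. ONECUT2 went from 0.424 to 0.221 and from 0.447 to 0.200 in the HNF4G-KO pairs, a fall in reads from 405 to 216 and from 465 to 133, and from 0.424 to 0.392 and from 0.554 to 0.567 with both changes. The ONECUT2 mean of HNF4G-KO metastases was 0.479 of that in tumors, with no overlap and an exact permutation p of 0.133, the smallest for 2 against 4 mice. That test treated the groups as separate, although both metastases came from mice whose tumors were in the other group. No overlap in HNF4G-KO metastases held for 33.0% of genes. The long-gene index ran from -0.17 to 0.02 in these metastases, below its range of 0.18 to 0.41 in HNF4G-KO tumors, and stromal markers summed to 77.2 to 418 RPKM against 51.5 to 73.5. Their part in the ONECUT2 difference was not tested. ONECUT1 was lower in the metastasis of all 4 mice, on 0 to 2 reads in each metastasis library.

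**Figure D4:**
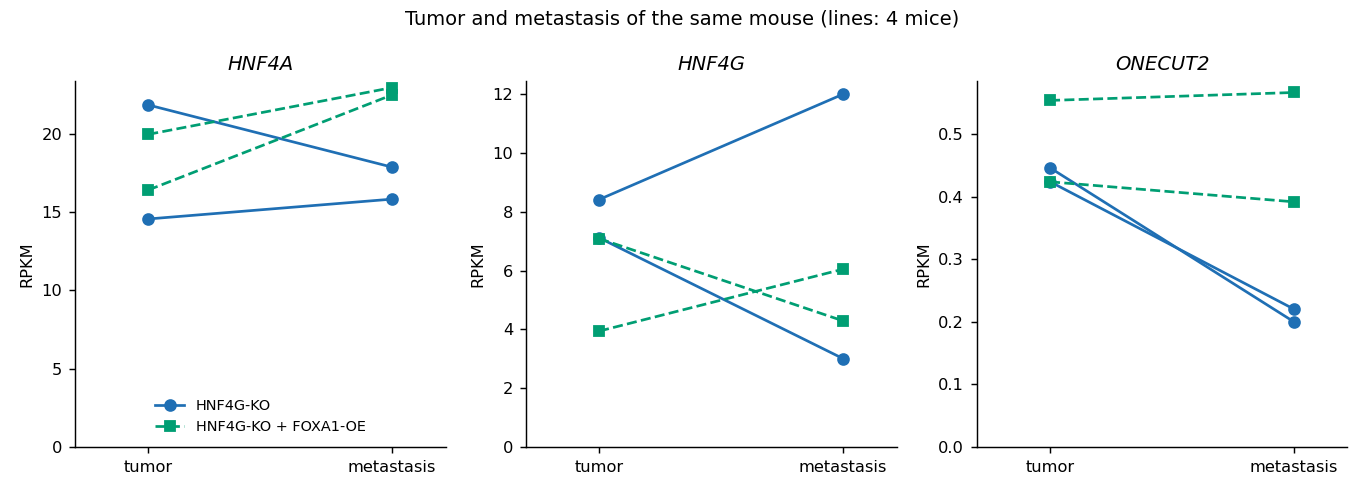
RPKM (linear axis from 0) of HNF4A, HNF4G and ONECUT2 in the tumor and the metastasis of the 4 mice with both, with 1 line per mouse, solid for HNF4G-KO and dashed for HNF4G-KO with FOXA1-OE. ONECUT2 falls from 0.424 to 0.221 and from 0.447 to 0.200 along the solid lines, while HNF4G goes up in one mouse and down in the other in each group.

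The mouse KPC lines used these families in other proportions. Hnf4a averaged 58.2 RPKM over the 8 libraries, rank 729, whereas Hnf4g averaged 0.842 and reached 1 RPKM in 1 of 8. The Hnf4a level was 82.0 ± 14.5 times that of Hnf4g in the tumor line (SD, n = 4) and 59.9 ± 12.1 times in the metastasis line (n = 4), so Hnf4g made up 1.23% and 1.69% of the paralog sum. Onecut2, low in HPAF-II, averaged 50.7 RPKM here, rank 883, and Onecut3 averaged 8.67, rank 5796. Onecut1 averaged 0.160 RPKM, on 6 to 47 reads. The species, culture and table differ, so these levels are set side by side only. All 7 epithelial markers reached 1 RPKM in some library, 6 of them in all 8, and hepatocyte markers summed to at most 0.656 RPKM, so the lines from liver metastases held little hepatocyte RNA by these genes.

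Between KPC lines limma called 0 of 12585 genes (0%), with 109 at an unadjusted p under 0.05. Hnf4a had 80.4, 78.3, 32.8 and 46.3 RPKM in the tumor line and 50.6, 50.4, 60.7 and 65.9 in the metastasis line, a log2 difference of 0.02 (SE 0.28, limma adjusted p = 1). Onecut2 had 31.1, 42.7, 56.7 and 56.2 against 42.4, 56.8, 61.4 and 58.4, a difference of 0.25 (SE 0.21, adjusted p = 1). Hnf4g had 0.820, 0.889, 0.420 and 0.722 against 0.818, 0.935, 1.26 and 0.867, with an exact permutation p of 0.143. Replicates 1 and 2 and replicates 3 and 4 went opposite ways for Hnf4a. It was lower in the metastasis line by 0.64 (limma adjusted p = 0.00345) in replicates 1 and 2 alone and higher by 0.69 (adjusted p = 0.248) in replicates 3 and 4 alone. Across genes, 76.9% had opposite directions in these subsets, and the differences in the subsets had a Pearson r of -0.815. The share of all genes called in each subset is not given here, so the limma p-value does not single out Hnf4a. The labels name no batch for the subsets, which were compared after the values were seen. Onecut2 was higher in the metastasis line in both, by 0.42 and 0.08, and Hnf4g by 0.02 and 0.39.

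**Figure D5:**
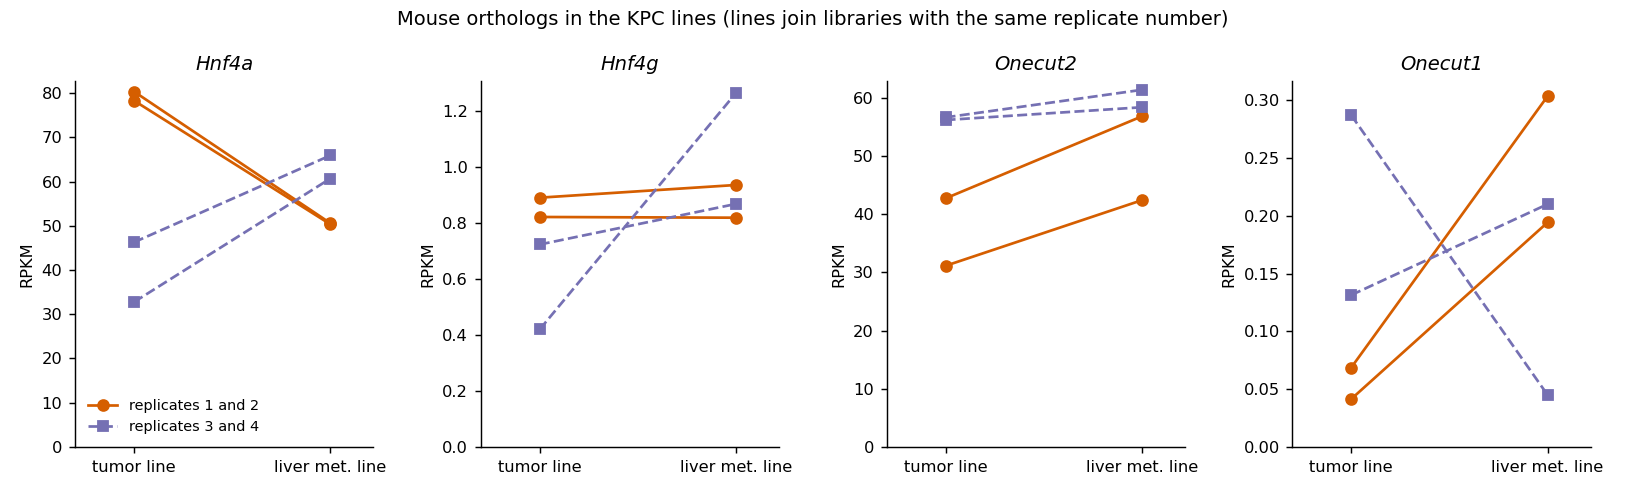
RPKM (linear axes from 0) of the mouse orthologs in the 8 KPC libraries, with lines that join libraries of the same replicate number, solid for replicates 1 and 2 and dashed for replicates 3 and 4. The lines of Hnf4a slope down for replicates 1 and 2, from 80.4 and 78.3 to 50.6 and 50.4, and up for replicates 3 and 4.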

How the data were processed

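Bulk RNA was sequenced as 50-base single-end reads after a stranded TruSeq mRNA preparation. Per the labels and methods, the authors aligned reads with STAR (2.6.1a), counted them with featureCounts (2.0.4) and deposited RPKM values, 1 table per species, on GRCh38 by the submitters' processing notes (the methods name GRCh37). The authors used DESeq2 on counts, which were not used here. For 99.7% of low HPAF-II values and 100% of KPC values, RPKM steps gave whole reads (tolerance 0.01 reads), from which depth was taken. Of the mouse table, 12 columns of no sample here were not used.

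Genes with mean RPKM of at least 1 were tested on log2(RPKM + 1) with limma 3.58.1 in R 4.3.3 (trended empirical Bayes, Benjamini-Hochberg adjustment, threshold 0.05), since RPKM are not counts. A fold change on this scale understates the change of low genes. All 4 primary tumor groups shared 1 spread, metastases were fitted with the tumors of their own genotype, and KPC lines separately. Samples of 1 kind from 1 mouse were averaged on the log2 scale. Single members were compared by exact two-sided permutation tests over mice (32 tests, unadjusted). Means, SDs and n are over mice, and intervals and limits cover counting error only. RefSeq promoter windows were searched for motifs. The fit was tested on simulated data.

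The members and lists were chosen with earlier results of these data known. Text names the members, the 5 genes most like each tested member, and up to 4 called genes of each list by size of change. Some genes of the lists are not reported here by name. Alternatives covered pseudocount, filter, median shift, left-out libraries, pairwise fits, blocks and a stromal covariate. The labels tie tumor and metastasis of the same mouse, and these pairs had correlations of deviations of 0.25, 0.30, 0.27 and -0.03. The main limma fit and the permutation tests of metastases did not use this pairing.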

Additional observations from a re-analysis of the deposited data

How the results depend on the processing

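The HNF4A calls were the main results, and their direction held under every alternative run. HNF4A was called in 21 of 24 alternatives for HNF4G-KO against control, 21 of 24 for both changes against FOXA1-OE and 15 of 24 for both changes against control. HNF4G was called in 7, 3 and 0 of these. The number of members called in HNF4G-KO against control was 1 and became 2 without the RPKM filter (ONECUT2 added) and, with HNF4G added, in a fit of only these groups, with the tumor number as a block, with the stromal covariate, without FOXA1-OE tumor 3 and with the length and GC trend removed. Leaving out each replicate gave 0 to 2. For both changes against FOXA1-OE the number was 1, with 2 without the filter, 0 in the fit of only these groups, 2 with the trend removed, and 0 to 2 leaving out each replicate. HNF4A was called in 13 of the 14 fits that left out a replicate. Among the other alternatives, the fit of only these groups was not the only one that lost its call. A number of 1 here therefore need not mean HNF4A. For both changes against control it was 1, with 0 in the fit of only these groups, with the block and with pseudocount 0.1 and no filter, and 0 to 1 leaving out each replicate. Without the filter alone it stayed 1, but the gene called was ONECUT2 (adjusted p = 0.0497) and HNF4A was not (limma adjusted p = 0.0600). In KPC it was 0, and 1 with replicates 1 and 2 alone. The cause was not tested. The trend removal, the omission of FOXA1-OE tumor 3 and the split of KPC replicates were chosen after seeing the data. The share of all genes called in each alternative is not given here, so these counts alone do not single out the members.

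Differences near 0 changed sign. HNF4A in FOXA1-OE against control was 0.13 with the stromal covariate and 0.12 without FOXA1-OE tumor 3, with -0.249 to 0.12 leaving out each replicate. In both changes against HNF4G-KO it was 0.0699 after a shift to the same median and 0.0455 with the trend removed, and -0.13 to 0.0549 leaving out each replicate. The difference of FOXA1-OE effects for HNF4G was 0.0928 with pseudocount 0.1, with or without the filter, 0.11 with the block and 0.18 with the trend removed, and -0.53 to 0.23 leaving out each replicate. For HNF4A it was -0.0634 with the block, -0.20 with the stromal covariate, -0.15 without FOXA1-OE tumor 3, and -0.15 to 0.23 leaving out each replicate. HNF4G in metastases ran from -0.93 to 0.70 in HNF4G-KO and from -0.15 to 0.47 with both changes, leaving out each mouse. KPC Hnf4a was -0.00286 after the median shift and -0.64 with replicates 1 and 2 alone, and -0.23 to 0.20 leaving out each replicate.

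Primary tumors of the same number shared only a number, with correlations of deviations from -0.27 to 0.63 and a median of 0.03, and KPC replicates of the same number from -0.41 to 0.21. The tumor number as a replicate block moved HNF4G in HNF4G-KO against control to 1.12 (limma adjusted p = 0.0178). The mouse as a block changed no member call in metastases. ONECUT1 and, in KPC, Onecut1 and Hnf4g are limited by depth.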
